A study of Oryza sativa with 16 samples.

Results

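The expansin genes of rice were followed across 16 libraries of roots and shoots. The family was chosen with earlier results of these data known. Its members are the rows whose symbol starts with EXP, EXPA, EXPB or EXPL (with or without Os) followed by a digit. By this name pattern, 44 of the 37849 genes in the files matched. Of these, 30 are alpha expansins and 14 are beta expansins. The symbols OsEXP1, OsEXP2, OsEXP3 and OsEXP4 are older names of alpha expansins. OsEXPLA1 and the row spelled OxEXPB5 did not match the pattern and are not counted.

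Seedlings of Nagina 22 (N22), an aus variety known for drought tolerance, and of the indica variety IR64 were grown in a vermiculite and perlite mixture. Plants were given low nitrogen with ample water (N-W+), low water with optimal nitrogen (N+W-), both stresses (N-W-) or optimal supply (N+W+). By the labels, W- plants got 10 ml of water a day and were 21 days old, while W+ plants got 100 ml and were 15 days old, so that by the labels age and water supply cannot be told apart in a comparison of W- with W+. The study's methods instead describe 1 growth period for all treatments and another watering scheme, and which account holds for these libraries is not settled. The labels contradict each other on the nitrogen doses, which are therefore not given here. The authors mixed the RNA of replicate plants before sequencing, which leaves a single library per combination of genotype, tissue and treatment.

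Expansins are small proteins of the cell wall that loosen it without cutting its polymers, by weakening the contacts between cellulose and the matrix polysaccharides at acid pH. Wall loosening lets a cell enlarge under turgor, and expansin transcripts are known from elongating coleoptiles, internodes, leaf bases, root elongation zones and root hairs. Alpha and beta expansins are separate branches of the family. Grasses carry many beta expansins, some of which act in vegetative growth and others, the group-1 pollen allergens, in pollen.

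Levels are given as CPM, the exon reads of a gene scaled to the library's size with TMM factors set within each tissue. Of the 44 expansins, 32 reached 1 CPM in at least 1 library (24 alpha and 8 beta). In roots 22 alpha and 8 beta expansins did so, and in shoots 11 alpha and 8 beta. The remaining 12 stayed below 1 CPM in every library, and they are OsEXPA14, OsEXPA20, OsEXPA23, EXPA23, EXPA26, OsEXPA32, OsEXPB1_1, OsEXPB1_2, OsEXPB9, OsEXPB10, OsEXPB13 and OsEXPB14. Among these, OsEXPB1_1, OsEXPB1_2, OsEXPB9, OsEXPB10 and OsEXPB13 are the pollen type, and none of them had more than 3 reads in any library.

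Exon reads per library ran from 8272195 to 13675454 in roots and from 2420338 to 11379518 in shoots, the lowest being the N-W+ shoots of N22, where 1 CPM stands for 3.24 reads. The tissue labels held against marker genes, since 16 leaf photosynthesis genes summed to 15.0 to 102 CPM in roots and to 12833 to 172199 CPM in shoots. A list of 13 root markers summed to 7430 to 21742 CPM in roots and to 231 to 2141 CPM in shoots. These are bulk tissues, in which fewer cells of a type and less RNA per cell cannot be told apart.

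The summed level of the family differed between low and high nitrogen in opposite directions in roots and shoots. In shoots, the 14 beta expansins together had 236 to 716 CPM in the 4 low nitrogen libraries, against 56.7 to 81.7 CPM in the 4 high nitrogen libraries. The 30 alpha expansins summed to 73.2 to 184 CPM in low nitrogen shoots, against 25.1 to 34.1 CPM in high nitrogen shoots. In roots, beta expansins summed to 181 to 419 CPM at low nitrogen, against 440 to 787 CPM at high nitrogen, and alpha expansins to 82.7 to 165 CPM, against 131 to 245 CPM. The ranges did not overlap in shoots for either class, and in roots they overlapped for the alpha class. These sums are given as a description, and OsEXPB4 alone held 30.6 to 77.9% of the expansin reads of a shoot library.

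**Figure D1:**
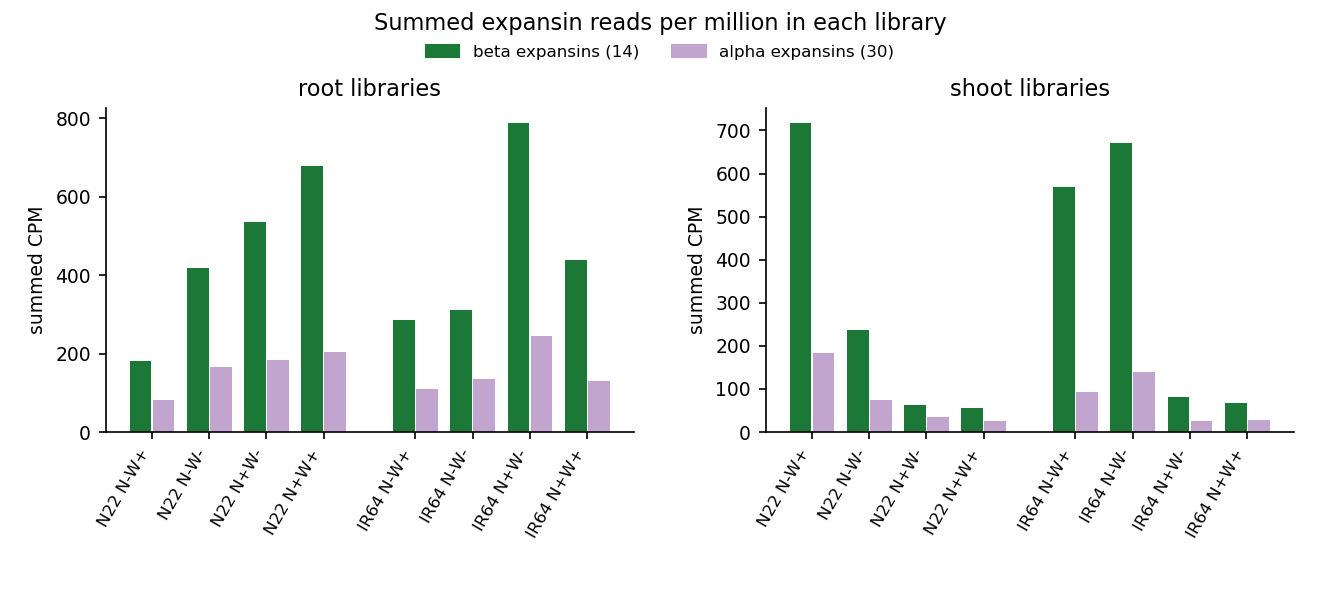
Summed CPM of the 14 beta expansins (green) and 30 alpha expansins (violet) in each of the 16 libraries, with root libraries in the left panel and shoot libraries in the right panel, and no error bars because each bar is 1 library. In shoots the low nitrogen libraries sit at 236 to 716 CPM for beta expansins and the high nitrogen libraries at 56.7 to 81.7 CPM.

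The comparison of low with high nitrogen used all 8 libraries of a tissue, with the genotypes as the only replication of a treatment, and was taken over both water levels. In shoots, 11 of the 18 expansins tested were called by edgeR at an adjusted p under 0.05. Of these, 10 were higher at low nitrogen (6 alpha and 4 beta), and 1 alpha expansin was lower. Of all 22913 genes tested in shoots, 18.2% were called, 10.7% as higher and 7.55% as lower. Of the 18 expansins tested, 12 reached 1 CPM on both sides, 6 of which were called as higher and 1 as lower. The other 6 reached 1 CPM at low nitrogen only, entered the test through those libraries, and gave 4 of the higher calls. These 4 were OsEXPA21, OsEXPB11, OsEXPB12 and OsEXPB17, and their direction follows largely from the way they entered the test. The other 26 of the 44 expansins had too few reads in shoots to be tested.

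OsEXPB4, a vegetative beta expansin of the chromosome 10 cluster (Os10g0556100), was the most abundant expansin of both tissues by median CPM and median TPM. It had 635 and 177 CPM in the N-W+ and N-W- shoots of N22 and 515 and 601 CPM in those of IR64, against 45.8 and 29.6 CPM in the N+W+ and N+W- shoots of N22 and 31.8 and 50.1 CPM in those of IR64. All 4 low nitrogen values lay above all 4 high nitrogen values. How many of all genes separate in this way was not counted, here or for the genes that follow. The log2 difference between low and high nitrogen was 3.55 (SE 0.45, adjusted p = 0.00427). On the TPM scale, which divides by exon length, its shoot level had a median of 65.6 and a highest value of 471 TPM. The next expansin in shoots by median TPM was OsEXPB3, at 18.7 TPM, and the ranges overlapped (10.8 to 471 TPM for OsEXPB4 and 8.96 to 48.7 TPM for OsEXPB3). In the N+W- shoots of N22 and the N+W+ shoots of IR64 OsEXPB3 lay above OsEXPB4 on this scale.

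Among alpha expansins, OsEXPA7 (Os03g0822000), OsEXPA5 (Os02g0744200) and OsEXPA6 (Os03g0336400) rose. OsEXPA7, which has been linked to salt tolerance in transgenic rice, had 29.0 and 18.1 CPM in the N-W+ and N-W- shoots of N22 and 13.1 and 27.8 CPM in those of IR64. Against these stood 0.299 and 0.938 CPM in the N+W+ and N+W- shoots of N22 and 0.477 and 1.84 CPM in those of IR64. The groups did not overlap, and the log2 difference was 4.86 (SE 0.48, adjusted p = 0.0021).

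OsEXPA5 had 38.2 and 8.98 CPM in the N-W+ and N-W- shoots of N22 and 15.1 and 27.6 CPM in those of IR64, against 0.897 and 2.35 CPM in the N+W+ and N+W- shoots of N22 and 0.318 and 0.650 CPM in those of IR64. Its log2 difference was 4.62 (SE 0.67, adjusted p = 0.00687). OsEXPA6 had 35.8 and 4.86 CPM in the N-W+ and N-W- shoots of N22 and 19.6 and 26.9 CPM in those of IR64, against 0.897 and 5.47 CPM in the N+W+ and N+W- shoots of N22 and 0.159 and 2.28 CPM in those of IR64. The groups of OsEXPA5 did not overlap, while for OsEXPA6 the N-W- shoots of N22 lay below the N+W- shoots of N22. The log2 difference of OsEXPA6 was 3.90 (SE 0.77, adjusted p = 0.0182).

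Beta expansins OsEXPB12 (Os03g0645000), OsEXPB17 (Os04g0530100) and OsEXPB11 (Os02g0658800) were near or at no reads in high nitrogen shoots. OsEXPB12 had 20.4 and 1.78 CPM in the N-W+ and N-W- shoots of N22 and 10.0 and 14.7 CPM in those of IR64, which is 276 reads in all, against 1 read over the 4 high nitrogen shoots. The ratio of pooled CPM was 274, with a counting interval (exact binomial, 95%) from 48.7 to 10856, and adjusted p was 0.0101. OsEXPB17 had 15.1 and 1.496 CPM in the N-W+ and N-W- shoots of N22 and 9.04 and 14.7 CPM in those of IR64, against 0 and 0.156 CPM in the N+W+ and N+W- shoots of N22 and 0.318 and 0.108 CPM in those of IR64 (log2 difference 6.02, SE 0.95, adjusted p = 0.00896). In both genes the N-W- shoots of N22 were the lowest of the low nitrogen libraries, and the groups did not overlap.

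OsEXPB11, which is known from internodes of deepwater rice, had 3.39 and 4.30 CPM in the N-W+ and N-W- shoots of N22 and 1.84 and 3.25 CPM in those of IR64, or 97 reads, against no read in the 4 high nitrogen shoots. Set against a floor of 3 counts over those 4 libraries, it was at least 32.1-fold higher at low nitrogen (adjusted p = 0.0101). OsEXPA21 (Os03g0377100) had 0.617 and 2.71 CPM in the N-W+ and N-W- shoots of N22 and 2.85 and 4.04 CPM in those of IR64, against 2 reads over the 4 high nitrogen shoots. Its pooled ratio was 41.7 with a counting interval from 11.2 to 350 (adjusted p = 0.0256).

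EXPA10 and OsEXP2 rose less, and OsEXP1 fell. EXPA10 (Os04g0583500), known as an aluminium-inducible expansin of rice roots, had 33.3 and 19.3 CPM in the N-W+ and N-W- shoots of N22 and 24.6 and 25.1 CPM in those of IR64, against 12.9 and 13.6 CPM in the N+W+ and N+W- shoots of N22 and 10.6 and 9.64 CPM in those of IR64 (log2 difference 1.13, SE 0.26, adjusted p = 0.0273). OsEXP2 (Os01g0823100) had 6.78 and 8.79 CPM in the N-W+ and N-W- shoots of N22 and 3.52 and 6.17 CPM in those of IR64, against 0.748 and 3.91 CPM in the N+W+ and N+W- shoots of N22 and 1.59 and 2.49 CPM in those of IR64 (log2 difference 1.63, SE 0.43, adjusted p = 0.0398). The groups of EXPA10 did not overlap, and those of OsEXP2 did.

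OsEXP1 (Os04g0228400) had 3.08 and 1.12 CPM in the N-W+ and N-W- shoots of N22 and 4.35 and 3.03 CPM in those of IR64, against 5.53 and 3.75 CPM in the N+W+ and N+W- shoots of N22 and 12.7 and 5.85 CPM in those of IR64. It was the only expansin called lower in shoots, by a log2 difference of -1.26 (SE 0.35, adjusted p = 0.0453), and its groups overlapped. The call was lost without each of the 8 shoot libraries in turn, with adjusted p between 0.0751 and 0.161, with library totals in place of TMM (log2 difference -0.77, adjusted p = 0.177) and without the filter on low counts (adjusted p = 0.0542).

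**Figure D2:**
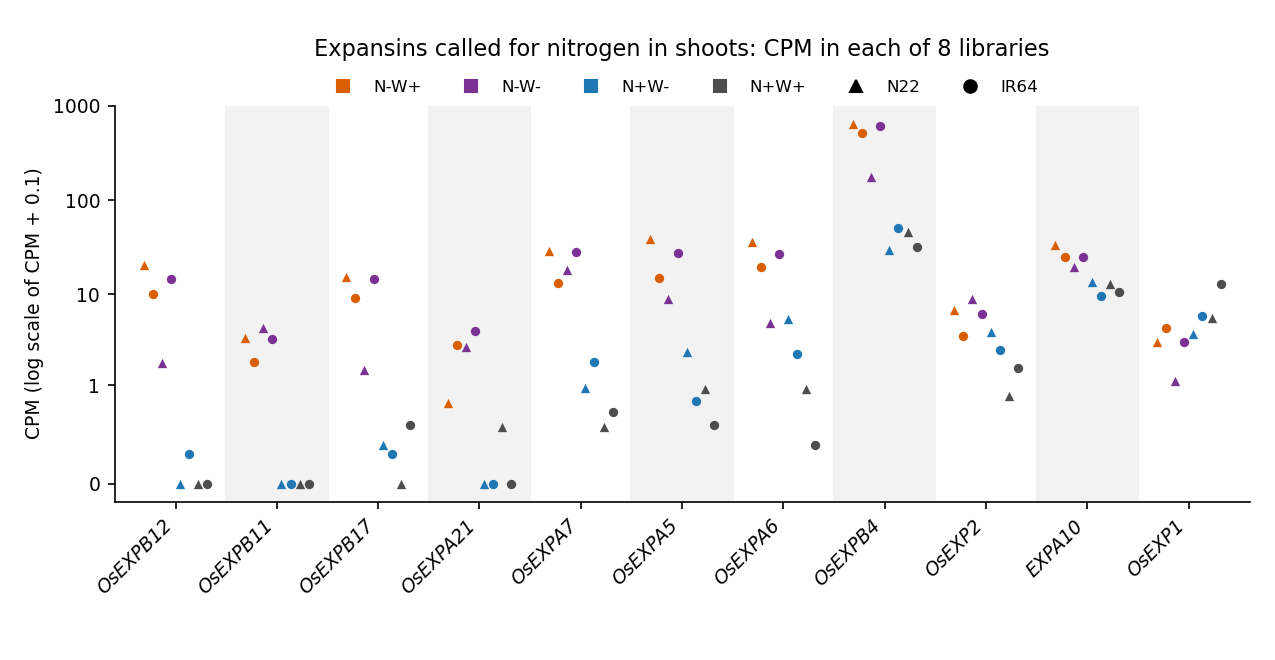
CPM (log scale of CPM + 0.1) of the 11 expansins called for nitrogen in shoots, 1 point for each of the 8 shoot libraries, with colour for treatment and shape for genotype (triangles N22, circles IR64). OsEXPB4 lies at 177 to 635 CPM in low nitrogen shoots, and OsEXPB11 has no read in any high nitrogen shoot library.

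The calls in shoots leaned on single libraries to different degrees. OsEXPA5, OsEXPA7, OsEXPB4, OsEXPB11, OsEXPB12 and OsEXPB17 were called under all 13 alternatives run, including each library left out. Of these, OsEXPB11, OsEXPB12 and OsEXPB17 entered the test through the low nitrogen libraries alone, which the alternatives do not change. The lowest shares of uniquely mapped reads among the 11 were 41.6% for OsEXPA21, 42.3% for OsEXPA5 and 59.0% for OsEXPA7. Their levels may include reads of similar genes. The count of 11 became 6 without the IR64 N+W- shoots and 7 without the IR64 N+W+, IR64 N-W-, N22 N+W+ or N22 N-W+ shoots, and it was 8 to 12 without each of the other 3 shoot libraries.

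Against N+W+ alone, edgeR called 7 expansins in N-W+ shoots, all of them higher, beside 13% of all genes, 7.6% as higher. They were OsEXPA5, OsEXPA6, OsEXPA7, OsEXPB4, OsEXPB11, OsEXPB12 and OsEXPB17, of which the last 3 reached 1 CPM in low nitrogen shoots only. In N-W- shoots 5 were called by edgeR, beside 6.83% of all genes. DESeq2 called 11, library totals gave 9, and 8 were called without the filter or with unique exon reads. The share of all genes called under those other settings was not counted. Among the 5, OsEXPA5, OsEXPA7, OsEXPB4 and OsEXPB11 were higher (4.33% of all genes were), and OsEXP1 was lower (2.51% were). These comparisons share their 2 N+W+ libraries, and none of the expansins was called without either of them. Without the N22 N-W+ shoots 1 was called in N-W+, and without the IR64 N-W- shoots 2 were called in N-W-.

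Within each genotype, where 1 library is set against 1 and no test is possible, a gene was counted when its log2 ratio to N+W+ lay beyond 2 in either direction with at least 1 CPM in 1 of the pair. In N-W+ shoots, 13 expansins of N22 and 10 of IR64 were past this fold, all of them higher. The backgrounds were 28.1% of all genes in N22 (17% higher) and 24.2% in IR64 (14.5% higher). In N-W- shoots, 12 expansins of N22 and 11 of IR64 were past it, with OsEXP1 as the only lower gene in each genotype. Here the backgrounds were 15% in N22 (9.99% higher) and 25.7% in IR64 (15.7% higher).

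Further expansins were past the fold in at least 2 of these pairs without being called over both genotypes. OsEXPA16 (Os06g0621900) had 8.33 and 0.561 CPM in the N-W+ and N-W- shoots of N22 and 2.01 and 7.40 CPM in those of IR64, against 0 and 0 CPM in the N+W+ and N+W- shoots of N22 and 0 and 0.867 CPM in those of IR64 (adjusted p = 0.0516). OsEXPA29 (Os06g0718100) had 4.01 and 0 CPM in the N-W+ and N-W- shoots of N22 and 4.18 and 2.36 CPM in those of IR64, against 0.150 and 0.469 CPM in the N+W+ and N+W- shoots of N22 and no read in those of IR64 (adjusted p = 0.132). Both genes had a low nitrogen library of N22 at or under 0.561 CPM, inside the range of the high nitrogen shoots.

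OsEXP4 was past the fold in the N-W+ shoots of N22 alone. This alpha expansin, known from coleoptiles and internodes of submerged rice, had 24.7 and 4.96 CPM in the N-W+ and N-W- shoots of N22 and 2.68 and 6.62 CPM in those of IR64, against 3.29 and 3.13 CPM in the N+W+ and N+W- shoots of N22 and 1.91 and 2.06 CPM in those of IR64 (adjusted p = 0.0835). OsEXPB2 and OsEXPB7 were past the fold in shoots of N22 only, under all 3 stresses. OsEXPB2 had 3.39, 10.6 and 11.9 CPM in the N-W+, N+W- and N-W- shoots of N22, against 0.598 CPM in N+W+. In IR64 shoots OsEXPB2 had 6.19, 11.1 and 6.39 CPM under the same stresses, against 10.6 CPM in N+W+. OsEXPB7 had 2.78, 3.75 and 4.30 CPM in N22 shoots, against 0.299 CPM in N+W+, and 4.18, 2.60 and 4.15 CPM in IR64 shoots, against 1.11 CPM in N+W+. In N22 both genes rest on an N+W+ library with 4 and 2 reads, and the genotype-by-nitrogen term called neither. OsEXPA9 was past the fold in the N-W- shoots of N22 alone, with 2.90 CPM in N-W-, against no read in N+W+.

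Other genes moved with the same shoot libraries. The 16 leaf photosynthesis genes summed to 12833 to 38545 CPM in low nitrogen shoots, against 57933 to 172199 CPM in high nitrogen shoots. In a list of 12 genes of shoot meristems and young stems, 2 to 7 genes reached 1 CPM in low nitrogen shoots, against 1 to 2 in high nitrogen shoots. The list summed to 101 to 164 CPM, against 55.2 to 140 CPM, and RCN1 had no read in any shoot. Most of these sums came from OsLAX1, a row matched beside LAX1, with 96.3 to 138 CPM, against 53.7 to 135 CPM. In roots the list summed to 147 to 326 CPM, so that it does not mark shoots alone. The 13 root markers summed to 231 to 405 CPM in low nitrogen shoots, against 668 to 2141 CPM in high nitrogen shoots, and 7 genes of seed remnants to 60.1 to 98.1 CPM, against 46.6 to 48.8 CPM. The name pattern of the root list takes in nitrate and ammonium transporter genes, which may themselves respond to nitrogen. The KNOX genes OSH1, OSH3, OSH6 and OSH15, homeobox genes of the meristem list singled out here after their values were seen, together had 86 and 11 reads in the N-W+ and N-W- shoots of N22 and 52 and 144 in those of IR64, against 1 and 7 in the N+W+ and N+W- shoots of N22 and 0 and 3 in those of IR64. Scaled to library size, these 4 genes summed to 1.03 to 26.5 CPM in low nitrogen shoots, against 0 to 1.09 CPM in high nitrogen shoots. The groups overlapped, since the N-W- shoots of N22 had 1.03 CPM and the N+W- shoots of N22 had 1.09 CPM. The list also holds OsH10, which overlapped, with 1.54 to 3.93 CPM in low and 0.897 to 3.13 CPM in high nitrogen shoots. Its row OsH43 stayed under 1 CPM in every shoot library. In the summed reads of OSH1, OSH3, OSH6 and OSH15, the N-W- shoots of N22 were the lowest of the low nitrogen shoots. They were also the lowest of them for OsEXPB4, OsEXPA5, OsEXPA6, EXPA10, OsEXPB12 and OsEXPB17, and not for OsEXPA7, OsEXPA21, OsEXPB11 and OsEXP2. The part of these shifts in the expansin result was not tested.

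In roots the expansins called for nitrogen were all lower. Of 28 tested, 5 were called, OsEXPB3, OsEXPB2 and OsEXPB7 among the beta and OsEXPA31 and OsEXPA16 among the alpha expansins, and all 28 fitted differences were below 0. Of all 24285 genes tested in roots, 7.36% were called, 4.66% as lower. The median log2 difference was -0.74 over the 20 alpha and -1.09 over the 8 beta expansins tested, beside 0.02 over all genes. Of the 28, OsEXPA29 reached 1 CPM in high nitrogen roots only and was not called. The other 16 expansins had too few reads in roots to be tested.

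OsEXPB3 (Os10g0555900) fell most, a beta expansin known like OsEXPB4 from growing internodes. It had 4.89 and 18.7 CPM in the N-W+ and N-W- roots of N22 and 10.5 and 11.3 CPM in those of IR64, against 55.7 and 35.1 CPM in the N+W+ and N+W- roots of N22 and 90.4 and 55.9 CPM in those of IR64. The groups did not overlap, and the log2 difference was -2.39 (SE 0.30, adjusted p = 0.00568). As in shoots, the share of all genes whose nitrogen groups do not overlap was not counted.

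OsEXPB7 (Os03g0102700) had 3.49 and 16.03 CPM in the N-W+ and N-W- roots of N22 and 5.84 and 5.50 CPM in those of IR64, against 30.4 and 25.8 CPM in the N+W+ and N+W- roots of N22 and 17.8 and 52.3 CPM in those of IR64. Its log2 difference was -2.12 (SE 0.45, adjusted p = 0.042). OsEXPB2 (Os10g0555700) had 13.3 and 35.2 CPM in the N-W+ and N-W- roots of N22 and 34.98 and 25.9 CPM in those of IR64, against 86.6 and 63.6 CPM in the N+W+ and N+W- roots of N22 and 66.1 and 115 CPM in those of IR64. Its log2 difference was -1.62 (SE 0.34, adjusted p = 0.036). In neither gene did the groups overlap, and the N-W+ roots of N22 were the lowest library for both.

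The alpha expansin OsEXPA31 (Os03g0428700) had 1.66 and 1.33 CPM in the N-W+ and N-W- roots of N22 and 2.89 and 3.56 CPM in those of IR64, against 8.35 and 7.56 CPM in the N+W+ and N+W- roots of N22 and 6.77 and 11.7 CPM in those of IR64 (log2 difference -1.92, SE 0.31, adjusted p = 0.0128). OsEXPA16 had 6.28 and 10.1 CPM in the N-W+ and N-W- roots of N22 and 6.45 and 7.23 CPM in those of IR64, against 17.6 and 13.4 CPM in the N+W+ and N+W- roots of N22 and 12.3 and 19.8 CPM in those of IR64 (log2 difference -1.09, SE 0.24, adjusted p = 0.0342). Neither gene's groups overlapped. Over all libraries, 47.3% of the reads of OsEXPA16 mapped uniquely.

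Only OsEXPB3 and OsEXPA31 were called under all 13 alternatives run. OsEXPB7 was also lost without the filter on low counts (adjusted p = 0.0626). The count of 5 became 3 without the IR64 N+W+ roots and 2 without the IR64 N+W-, IR64 N-W-, N22 N+W+ or N22 N-W+ roots. With library totals in place of TMM it was 2, with adjusted p of 0.0502 to 0.0531 for OsEXPA16, OsEXPB2 and OsEXPB7. The KNOX genes OSH1, OSH3, OSH6 and OSH15 summed to 55.8 CPM in the N+W+ roots and 156 CPM in the N-W- roots of IR64, and to 7.99 to 14.2 CPM in the other 6 root libraries. A list of 6 root hair genes summed to 118 to 155 CPM in low nitrogen roots, against 157 to 199 CPM in high nitrogen roots, with no overlap. By gene, only CSLD1 fell without overlap, at 15.5 to 24.7 CPM, against 31.9 to 52.1 CPM. The groups overlapped for OsAPY (44.1 to 71.1 CPM, against 50.4 to 60.4 CPM), OsRTH1, OsRTH2, OsFH1 and OsSNDP1. The part of the KNOX or root hair genes in the root result was not tested.

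**Figure D3:**
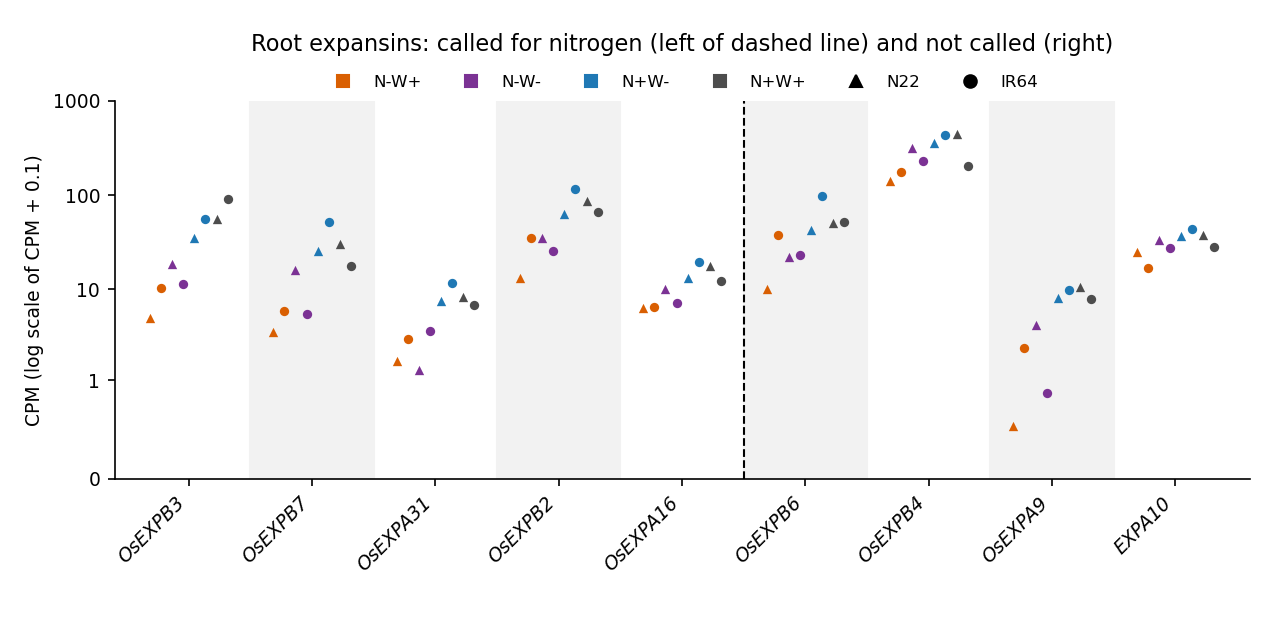
CPM (log scale of CPM + 0.1) in each of the 8 root libraries, with the 5 expansins called for nitrogen left of the dashed line and 4 that were not called right of it, colour for treatment and shape for genotype (triangles N22, circles IR64). OsEXPB3 lies at 4.89 to 18.7 CPM in low nitrogen roots and at 35.1 to 90.4 CPM in high nitrogen roots.

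Against N+W+ alone, OsEXPB3 was the only expansin that edgeR called in N-W+ roots, where it was lower (log2 difference -3.26, SE 0.44, adjusted p = 0.015), beside 2.83% of all genes, 2.27% as lower. DESeq2 called 6 there, and edgeR on unique exon reads 2, with the share of all genes not counted under either setting. The call was lost when any of the 4 libraries of that comparison was left out. In N-W- roots edgeR called no expansin, beside 1.62% of all genes. At an unadjusted p under 0.05, 1 was higher and 5 were lower there, beside 3430 of all 24285 genes tested. DESeq2 called 2.

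Within genotypes, 8 expansins of N22 were past the fold in N-W+ roots, all of them lower, and 1 of IR64 was, OsEXPB3. The backgrounds were 8.05% of all genes in N22 (5.73% lower) and 7.64% in IR64. The 8 of N22 were OsEXPB2, OsEXPB3, OsEXPB6, OsEXPB7, OsEXP4, OsEXPA9, OsEXPA24 and OsEXPA31. OsEXPA9 (Os01g0249100) had 0.262 and 4.10 CPM in the N-W+ and N-W- roots of N22 and 2.35 and 0.713 CPM in those of IR64, against 10.5 and 8.15 CPM in the N+W+ and N+W- roots of N22 and 7.85 and 9.93 CPM in those of IR64. It did not pass the test over both genotypes (adjusted p = 0.108), and only 27.8% of its reads mapped uniquely. OsEXP4 had 0.524 and 1.33 CPM in the N-W+ and N-W- roots of N22 and 2.35 and 1.12 CPM in those of IR64, against 3.40 and 1.77 CPM in the N+W+ and N+W- roots of N22 and 0.846 and 3.14 CPM in those of IR64.

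In N-W- roots, 1 expansin of N22 (OsEXPA31, lower) and 3 of IR64 were past the fold, beside 6.21% of all genes in N22 and 7.06% in IR64. In IR64 these were OsEXPA9 and OsEXPB3, lower, and OsEXPA19, which had 12 reads in N-W-, against none in N+W+. Set against a floor of 3 counts in that library, OsEXPA19 was at least 3.37-fold higher.

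OsEXPB4 was not called in roots. It had 141 and 314 CPM in the N-W+ and N-W- roots of N22 and 177 and 231 CPM in those of IR64, against 440 and 356 CPM in the N+W+ and N+W- roots of N22 and 206 and 438 CPM in those of IR64 (log2 difference -0.77, SE 0.27, adjusted p = 0.128). OsEXPB6, its neighbour on chromosome 10, had 10.0 and 22.2 CPM in the N-W+ and N-W- roots of N22 and 37.5 and 23.4 CPM in those of IR64, against 51.4 and 43.1 CPM in the N+W+ and N+W- roots of N22 and 51.5 and 98.9 CPM in those of IR64 (adjusted p = 0.0522). The groups overlapped for OsEXPB4 and not for OsEXPB6.

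Whether nitrogen acted differently in root and shoot was tested in 1 fit over all 16 libraries, added after the data had been seen. Of 22 expansins tested, 7 were called, beside 4.26% of all genes. In all 7 the change in roots was below that in shoots, as in 3.22% of all genes. They were OsEXPB4, OsEXPB3, OsEXPB7, OsEXPB12 and OsEXPB17 among the beta expansins and OsEXPA5 and OsEXPA7 among the alpha expansins. For OsEXPB4 the log2 change in roots minus that in shoots was -4.13 (SE 0.59, adjusted p = 0.0101), and for OsEXPA7 it was -5.30 (SE 0.85, adjusted p = 0.0139). OsEXPB3 reached the call (-3.19, SE 0.55, adjusted p = 0.017) through its fall in roots, while in shoots its own nitrogen change was 0.85 (SE 0.36, adjusted p = 0.148). Only OsEXPB4 was called under all 21 alternatives of this fit, and without the IR64 N+W+ roots it was the only expansin called. The median of this difference was 0.16 over all genes tested.

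**Figure D4:**
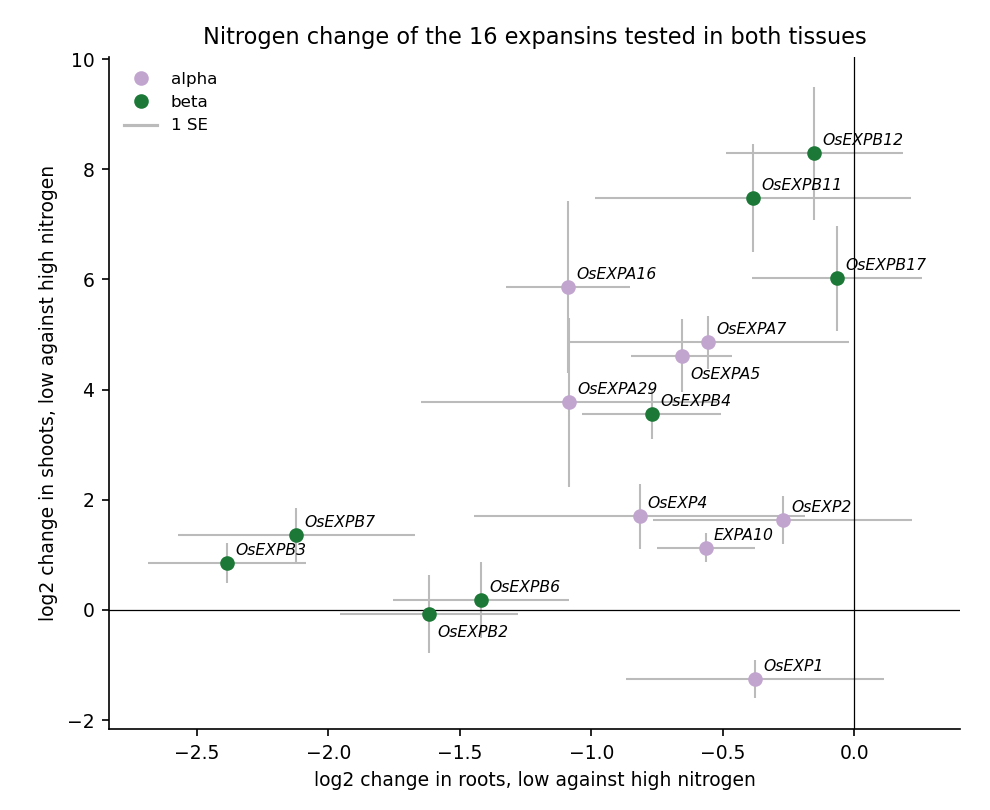
Log2 change between low and high nitrogen in roots (horizontal) and in shoots (vertical) for the 16 expansins tested in both tissues, with bars of 1 SE from the edgeR fits, beta expansins in green and alpha expansins in violet. OsEXPB4 lies at -0.77 in roots and 3.55 in shoots, and OsEXPB3 at -2.39 in roots and 0.85 in shoots, while the shoot positions of OsEXPB11 and OsEXPB12, with 0 and 1 read at high nitrogen, depend on the prior count.

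The chromosome 10 cluster shows this within 31.1 kb. OsEXPB6, OsEXPB2, OsEXPB3 and OsEXPB4 lie there side by side (21830158 to 21861259 on IRGSP-1.0), each with 3 or 7 exons. In shoots OsEXPB4 rose at low nitrogen, while OsEXPB6 and OsEXPB2 had log2 differences of 0.18 (SE 0.69, adjusted p = 0.887) and -0.07 (SE 0.71, adjusted p = 0.961). In roots OsEXPB2 and OsEXPB3 fell, and OsEXPB6 and OsEXPB4 did not pass the test. The difference between neighbours was not tested. All reads of OsEXPB2 and OsEXPB4 mapped uniquely, against 57.6% of those of OsEXPB6 and 76.0% of those of OsEXPB3, so that reads may be split between near-identical copies in the last 2 genes.

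Among the alpha expansins, a cluster of 6 genes on chromosome 3 (OsEXPA12, OsEXPA25, OsEXPA15, OsEXPA18, OsEXPA19 and OsEXPA20, 2998855 to 3037894) had 0 to 3 reads of each gene in a shoot library. In roots the highest member there was OsEXPA15, at 9.02 CPM in the N+W- roots of IR64. A cluster of 6 on chromosome 2 (9551864 to 9601245) likewise held root genes, led by OsEXPA13 at 1.95 to 8.66 CPM. Its rows OsEXPA23 and EXPA23 have no uniquely mapped read and cannot be told apart.

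For low water at optimal nitrogen, edgeR called no expansin in N+W- roots, beside 0.00824% of all genes, with 1 higher and 1 lower at an unadjusted p under 0.05 and none by DESeq2. In N+W- shoots it called none, beside 0% of all genes, with 3 higher and none lower at an unadjusted p under 0.05 and none by DESeq2. At that unadjusted p stood 1765 of all 24285 genes tested in N+W- roots and 2647 of 22913 in N+W- shoots. Over both nitrogen levels, low against high water gave no call in either tissue, beside 0% of all genes. At an unadjusted p under 0.05, 2 were higher in roots, and 1 was higher and 1 lower in shoots, and DESeq2 called 1 in roots and none in shoots. Of all genes tested, 1920 of 24285 in roots and 1272 of 22913 in shoots were under that p. The term for a different water effect in root and shoot called no expansin by edgeR and none by DESeq2, beside 0% of all genes, with 1 at an unadjusted p under 0.05. Of all 21692 genes in that fit, 331 were under it.

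By the fold rule, N+W- roots held no expansin past the fold in N22 and 2 in IR64, beside 2.55% of all genes in N22 and 5.46% in IR64. OsEXP1 had 50.3 CPM in N+W- roots of IR64, against 9.91 CPM in N+W+, and OsEXPB11 had 13.4 CPM, against 2.66 CPM. In N22 roots OsEXP1 had 32.4 CPM in N+W-, against 33.3 CPM in N+W+, and OsEXPB11 had 2.65 CPM, against 5.67 CPM. The N+W+ roots of IR64 had the lowest OsEXP1 level of the 8 root libraries, next to 9.95 CPM in the N-W+ roots of N22. In N+W- shoots, 4 expansins of N22 were past the fold, all higher (OsEXP2, OsEXPA6, OsEXPB2 and OsEXPB7), beside 10.2% of all genes (6.7% higher), and 1 of IR64, OsEXPA6, beside 9.15%. Under all 3 stresses OsEXPA6 was past the fold in shoots of each genotype.

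Between N22 and IR64, edgeR called no expansin in roots, beside 14% of all genes, and DESeq2 called 1. At an unadjusted p under 0.05, 1 of the 28 tested was higher and 1 lower, beside 7605 of all 24285 genes. In shoots edgeR called none, beside 6.62% of all genes, and DESeq2 called none. At an unadjusted p under 0.05, 1 of the 18 tested was lower there, beside 5272 of all 22913 genes. The terms for a genotype difference in the nitrogen or water effect, fitted with 2 residual degrees of freedom, called no expansin in roots or shoots, beside 0% of all genes for each, and DESeq2 called none. At an unadjusted p under 0.05 the genotype-by-water term in shoots had 1 expansin higher and 2 lower, and the other 3 terms had none. Among all 22913 genes tested in shoots, 613 were under it for genotype-by-water and 548 for genotype-by-nitrogen. Among all 24285 genes tested in roots, 216 and 293 were.

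Fewer expansins reached 1 CPM in shoots (11 alpha and 8 beta) than in roots (22 alpha and 8 beta). Of those in shoots, only OsEXPA6 and OsEXPA21 stayed below 1 CPM in every root library. Of 22 tested over all 16 libraries with a block for each genotype and treatment, 12 were called, all higher in roots, beside 43.4% of all genes, 22% as higher in roots. Of the 12, OsEXP3, OsEXPA31, OsEXPA11, OsEXPA12, OsEXPA13, OsEXPA15 and EXPA8 had at most 0.367 CPM in any shoot library and entered the test through the roots. For this comparison CPM was scaled over all 16 libraries. OsEXP3 (Os05g0276500) had a lowest, median and highest level of 4.45, 7.27 and 14.4 CPM in roots, against no read in any of the 8 shoot libraries. Set against a floor of 3 counts over those libraries it was at least 158-fold higher in roots (adjusted p = 0.00172). OsEXPA31 had 1.20, 4.72 and 10.9 CPM in roots, against no read in shoots, or at least 87.0-fold higher (adjusted p = 0.00322).

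OsEXPA11 (Os01g0274500) had 7.94, 15.3 and 21.7 CPM in roots as its lowest, median and highest value, against 0 to 0.365 CPM in shoots (log2 difference 7.52, SE 0.66, adjusted p = 1.01e-05). EXPA8 (Os01g0248900), whose overexpression has been reported to change root architecture, had 3.20, 4.31 and 7.91 CPM in roots, against 0 to 0.367 CPM in shoots (log2 difference 5.79, SE 0.60). OsEXPB6 (Os10g0555600) had 9.13, 37.0 and 91.8 CPM in roots, against 0.550 to 1.59 CPM in shoots (log2 difference 5.09, SE 0.37). OsEXPA15 and OsEXPA12 had 388 and 452 reads over the roots, against 1 and 3 reads over the shoots, and OsEXPA13 had 407 reads, against 7. In all of these genes every root library lay above every shoot library. Apart from OsEXPB6 they entered the test through the roots, so that their separation follows largely from that filter. The share of all genes that separate in this way was not counted.

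The other 4 calls, OsEXPB2, OsEXP1, OsEXPB7 and OsEXPA16, had root and shoot libraries that overlapped, with log2 differences between 2.17 and 3.25. OsEXPA16 lost the call without 10 of the 16 libraries in turn (adjusted p 0.0611 to 0.0817) and OsEXPB7 without 6 (adjusted p 0.0595 to 0.0682). No tested expansin was called higher in shoots. The tested gene nearest to it was OsEXP4, with 0.476, 1.40 and 3.07 CPM in roots, against 2.20, 3.61 and 23.8 CPM in shoots (log2 difference -1.55, SE 0.60, adjusted p = 0.0597). OsEXPA17 (Os06g0108600), required for root hair elongation in rice, had 10 to 48 reads in each root library, against no read in any shoot library, and was not tested over all libraries. OsEXPA6 and OsEXPA21 were not tested either. OsEXPA6 had 0.111, 0.586 and 1.17 TPM in roots as its lowest, median and highest value, against 0.124, 6.55 and 61.1 TPM in shoots. OsEXPA21 had at most 0.221 TPM in roots, against up to 6.601 TPM in shoots.

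**Figure D5:**
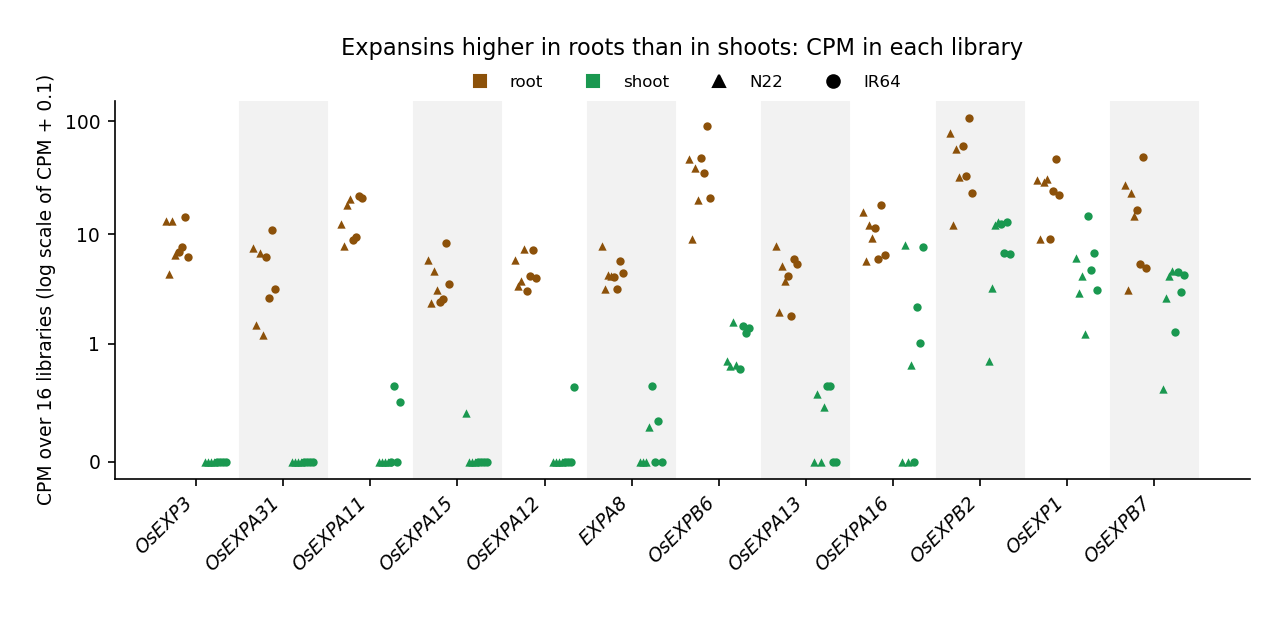
CPM scaled over all 16 libraries (log scale of CPM + 0.1) for the 12 expansins called higher in roots, 8 root libraries (brown) left of 8 shoot libraries (green) in each column, triangles for N22 and circles for IR64. OsEXP3 and OsEXPA31 have no read in any shoot library.

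Between genes, levels can be compared per length only. By median TPM in roots the order was OsEXPB4 at 158 TPM, OsEXPB2 at 55.7 TPM, OsEXPB6 at 48.7 TPM, OsEXP1 at 37.0 TPM, OsEXPB3 at 29.7 TPM and OsEXPA11 at 29.5 TPM. The ranges of OsEXPB2, OsEXPB6, OsEXP1, OsEXPB3 and OsEXPA11 over the 8 root libraries overlapped with one another. The range of OsEXPB4, 77.97 to 298 TPM, overlapped with those of OsEXPB2, OsEXPB6 and OsEXPB3 and lay above those of OsEXP1 and OsEXPA11.

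Other genes that build or remodel the wall were counted by name pattern. In shoots at low nitrogen, 16 of 21 fasciclin-like genes tested were higher, with a median log2 difference of 2.87. Pectin methylesterases had 9 of 20 higher (median 2.34), xyloglucan endotransglucosylase/hydrolases, which cut and rejoin xyloglucan, had 10 of 20 higher (median 1.41), and cellulose synthases had 5 of 9 higher (median 1.24). None of these lists had a lower call. How many of their genes entered the test through the low nitrogen shoots alone was not counted, so that part of these calls may follow from the filter. Of all genes tested 10.7% were higher, with a median of 0.01. Named by their calls, OsXTH28 (log2 difference 5.89, SE 0.41), OsPME19 (4.62, SE 0.40), OsFLA15 (4.04, SE 0.36) and OsCesA6 (1.87, SE 0.30) had adjusted p of 0.00127, 0.00155, 0.00166 and 0.00854.

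In roots at low nitrogen the same lists had lower calls only. These were 4 of 21 xyloglucan endotransglucosylase/hydrolases (median -0.57), 3 of 21 pectin methylesterases (median -0.52) and 1 of 19 fasciclin-like genes (median -0.64), and no cellulose synthase of 9 was called (median -0.30). Of all genes tested 4.66% were lower, and the share of the fasciclin-like genes was near that background. OsPME30 (log2 difference -1.83, SE 0.28, adjusted p = 0.0105) and OsXTH16 (-2.48, SE 0.44, adjusted p = 0.0177) had the smallest p among them. The single endo-1,4-beta-glucanase gene matched by name passed the test in neither tissue.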

How the data were processed

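The authors pooled RNA of the replicates, made Illumina libraries, removed low-quality reads with sickle, and mapped the rest in the CLC Genomics Workbench to IRGSP-1.0 (build per the labels). The counts, as deposited, are whole numbers of total and unique exon reads and gene reads per gene, with no normalization. The authors also deposited TPM, in which reads are divided by exon length and scaled to 1 total per library. Total exon reads were analysed here in R 4.3.3 with edgeR 4.0.16 (quasi-likelihood, robust, TMM, filterByExpr, Benjamini-Hochberg over all genes tested, called at 0.05). CPM was computed with TMM within each tissue. The joint fit per tissue had genotype and treatment as terms (3 residual degrees of freedom), the genotype interactions had 2, root against shoot 7, and the tissue interactions, added after seeing the data, 5. P-values of the joint fits measure how treatment differences vary between pooled libraries of the 2 genotypes. Those of the genotype interactions take the nitrogen-by-water difference as spread. For root against shoot, the spread is that of the tissue difference over combinations of genotype and treatment. The tissue interactions use what remains of that spread after nitrogen and water. Within a genotype, a log2 ratio beyond 2 was counted with a prior count of 0.5 and at least 1 CPM in 1 library of the pair. Intervals of 95% are exact binomial, and they and the floors of 3 counts cover counting error only. DESeq2 1.42.0, library totals, no filter, unique exon reads, gene reads, and leaving out each library were the alternatives. Simulated counts with planted changes, a single spread for all genes and otherwise equal genotypes were also run through the fits. That setting is simpler than these data, and its outcome is not given here.

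The members and lists were chosen with earlier results of these data known. Every expansin was eligible to be named. Those called, or past the fold in at least 2 comparisons, are given with the value of each library, and wall genes outside the family are counted by name pattern and named only where called. Clusters are members less than 50 kb apart. Figures were drawn with matplotlib 3.10.9.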

Additional observations from a re-analysis of the deposited data

Results flagged for a closer look

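A difference between root and shoot in the response to low nitrogen led to a closer look at 7 expansins. The test was the product of tissue and nitrogen in 1 edgeR fit over 16 libraries, and each value is the log2 change in roots minus that in shoots. The values were -4.13 for OsEXPB4, -5.30 for OsEXPA7, -4.97 for OsEXPA5, -7.73 for OsEXPB12, -3.19 for OsEXPB3, -5.66 for OsEXPB17 and -3.30 for OsEXPB7. The fitted value of OsEXPB12 rests on 1 read over the 4 high nitrogen shoots and depends on the prior count. Without 1 library the count of 7 fell to 1 (IR64 N+W+ roots), to 2 (IR64 N-W- roots, IR64 N-W- shoots, N22 N+W+ roots or N22 N+W+ shoots), to 3 (IR64 N+W+ shoots, IR64 N+W- roots, N22 N-W+ roots or N22 N-W+ shoots) or to 4 (IR64 N+W- shoots). No cause was tested.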

How the results depend on the processing

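No paired analysis was possible because the labels number no replicates, which were pooled into 1 library per combination, beyond the genotype term and the genotype and treatment block that the fits already hold. No call of a named expansin changed direction under any alternative. Where a treatment keeps 1 library after a library is left out, that library is assumed to vary like the others. Ranges of expansins called over the libraries left out in turn were 0 to 1 (N-W+ roots), 0 to 1 (N-W- roots), 0 to 1 (genotype in roots), 2 to 6 (low nitrogen in roots), 0 to 9 (N-W+ shoots), 0 to 7 (N-W- shoots), 6 to 12 (low nitrogen in shoots), 0 to 1 (genotype-by-nitrogen in shoots), 0 to 3 (genotype-by-water in shoots), 10 to 15 (root against shoot) and 1 to 9 (tissue-by-nitrogen). DESeq2 called 6 in N-W+ roots, 2 in N-W- roots, 1 for genotype and 1 for water in roots, and 11 in N-W- shoots. Library totals gave 2 for nitrogen in roots and 9 in N-W- shoots. Without the filter there was 1 in N-W- roots, 8 in N-W- shoots and 19 for root against shoot. Unique exon reads gave 2 in N-W+ roots, 1 in N-W- roots and 8 in N-W- shoots. For none of these alternatives was the share of all genes called counted.

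Past the fold, without a minimum there were 5, 8 and 8 expansins in N+W-, N-W+ and N-W- roots of IR64, 2, 13 and 4 in those of N22, 5 and 17 in N+W- and N-W- shoots of IR64, and 7 in N+W- shoots of N22. With a counting interval wholly past it there were 1 in N+W- roots of IR64, 5 and 0 in N-W+ and N-W- roots of N22, 0 in N+W- shoots of IR64, and 1 and 6 in N+W- and N-W- shoots of N22. A minimum of 5 CPM left 0 and 6 in N+W- and N-W+ shoots of IR64, and 2 and 5 in N+W- and N-W- shoots of N22. Library totals gave 5 and 2 in N+W- and N-W+ roots of IR64 and 2 in N+W- shoots of IR64. Unique exon reads gave 4 and 3 in N+W- and N-W+ roots of IR64, 2 in N+W- roots of N22 and 2 in N+W- shoots of IR64, and gene reads gave 2 in N-W+ roots of IR64.

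Depth limits the low members, since 1 CPM is 3.24 reads in the N-W+ shoots of N22.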
